A study of Mus musculus with 6 samples.

Results

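Polyamine metabolism was examined through 9 genes, Odc1, Amd1, Amd2, Srm, Sms, Sat1, Smox, Oaz1 and Azin1, in gastrocnemius muscle of HrasG12V and WT mice. The genes were taken by symbol, whatever their values. They are 9 of the 23997 gene symbols measured, and all 9 had a mean of at least 0.5 FPKM (sequenced fragments scaled to transcript length and to the reads mapped in a library), a limit that 13359 genes met. The mice model Costello syndrome, in which an activating Hras mutation alters growth and muscle. HrasG12V mice (2276, 2278 and 2279) were heterozygous for the p.G12V allele with the genotype Caggs-Cre+/HrasG12V/+. WT mice (2277, 2280 and 2281) were Caggs-Cre-/HrasflG12V/+, so the controls carried the floxed allele without recombination and no Cre. Cre was driven by the ubiquitous CAG promoter, so the mutant allele was not limited to muscle fibers. All 6 mice were untreated, 21 days old and of a mixed SWR/J, 129S1/SvImJ and C57BL/6J background, with 1 RNAseq library per mouse. The WT mice were littermates of the mutants, but which mice shared a litter is not labelled, nor are sex and batch.

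Putrescine, spermidine and spermine are small cations that bind nucleic acids and are needed for growth and protein synthesis. Odc1 decarboxylates ornithine to putrescine, Amd1 and Amd2 decarboxylate S-adenosylmethionine to supply aminopropyl groups, and Srm and Sms add these groups to give spermidine and then spermine. Sat1 acetylates spermidine and spermine for export or oxidation, and Smox oxidizes spermine back to spermidine. Antizyme, the product of Oaz1, binds ODC protein and sends it to the proteasome, while the antizyme inhibitor Azin1 binds antizyme in its place. Much of this control acts on translation and protein stability, which RNA levels do not show.

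Several of the genes have near-identical copies in the genome, which matters for reads of 50 bases. Amd1 has 8 exons and lies on the minus strand of chromosome 10 (GRCm38, chr10:40287458-40302186). Amd2 is a single exon on the same strand (chr10:35708675-35711892). Their coding sequences, from GENCODE transcripts, were identical at 1001 of 1002 bases, and the one difference was G796C (Amd1 base, position from the first base of the start codon, Amd2 base). Of 953 coding windows of 50 bases, 903 (94.8%) were identical in both genes. The window centered on the difference, with the differing base in capitals, and the first coding window, which is identical, are shown because they set what a read can tell apart:
Amd1 coding bases 771 to 820: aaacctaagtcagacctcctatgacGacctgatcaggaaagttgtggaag
Amd2 coding bases 771 to 820: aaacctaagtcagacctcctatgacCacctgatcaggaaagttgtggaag
Amd1 and Amd2 coding bases 1 to 50: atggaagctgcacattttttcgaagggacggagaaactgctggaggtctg

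The sequence upstream of the pair is shown because it differs where the transcripts are nearly identical. Bases in capitals match GGGCGG on either strand (CCGCCC is its reverse complement), and sequences are from the RefSeq promoter table for GRCm38.p6, which held 7 of the 9 genes.
Amd1 upstream, chr10:40302189-40302438, minus strand: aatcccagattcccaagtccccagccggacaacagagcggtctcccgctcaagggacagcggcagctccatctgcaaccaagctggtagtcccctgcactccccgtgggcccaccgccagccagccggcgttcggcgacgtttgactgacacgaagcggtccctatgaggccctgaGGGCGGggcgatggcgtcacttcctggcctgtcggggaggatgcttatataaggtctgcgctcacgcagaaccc
Amd2 upstream, chr10:35711893-35712141, minus strand: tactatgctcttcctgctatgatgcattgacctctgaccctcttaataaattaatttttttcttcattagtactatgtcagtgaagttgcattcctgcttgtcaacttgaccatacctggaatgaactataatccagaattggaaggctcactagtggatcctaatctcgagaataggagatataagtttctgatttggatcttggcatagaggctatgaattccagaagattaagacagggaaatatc
Odc1 upstream, chr12:17544623-17544793, plus strand: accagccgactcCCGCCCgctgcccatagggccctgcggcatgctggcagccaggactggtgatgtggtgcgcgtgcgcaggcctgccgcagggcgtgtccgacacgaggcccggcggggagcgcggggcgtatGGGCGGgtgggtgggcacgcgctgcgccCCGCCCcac

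In the 250 bases before the RefSeq start, Amd1 held 19 CG dinucleotides and 1 GGGCGG match, whereas Amd2 held 2 CG dinucleotides and 0 matches. The Amd2 stretch shown stops a base short of that window, inside the second CG. The median over 32851 promoter windows was 6 CG dinucleotides, and 32.7% of windows held GGGCGG on either strand. The Odc1 window held 35 CG dinucleotides and 4 GGGCGG matches, 3 of them in the bases shown, which stop before the GENCODE start. The E-box CACGTG, which reads the same on both strands, was in 6.02% of windows and was not among the letters of the Odc1, Amd1 or Amd2 windows.

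Oaz1 and its processed copy Oaz1-ps are a second such pair, and both are listed in the deposited tables. Antizyme is made only when ribosomes shift frame at a stop codon, and polyamines favor this shift. The 30 bases around that stop codon (TGA in capitals) were the same in Oaz1 and Oaz1-ps:
Oaz1 frameshift site: gggcctcggtggtgctccTGAtgtccctca
Oaz1-ps, same stretch: gggcctcggtggtgctccTGAtgtccctca

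Of all 50-base windows along the longest transcript, 87.6% of Amd1, 85.7% of Amd2, 52.2% of Oaz1, 42.2% of Odc1, 28.7% of Sms, 7.28% of Sat1 and 2.40% of Srm also occurred in a transcript of another gene. The longest annotated Oaz1 transcript leaves out a few bases at the frameshift, so its percent is understated, and the site shown was read from another Oaz1 transcript. The Odc1 windows were shared with 15 genes, led by Gm7993 (20.3%), and the Sms windows were shared mainly with Sms-ps. Smox and Azin1 shared 0% of their windows, so by this count their values do not carry this uncertainty. The start of Azin1 overlaps an antisense gene, Gm49077, and whether counting used the strand is not given in the sources used here.

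Values of the libraries bear on the results below. In mouse 2276 genes with transcripts under 1 kb differed from the WT mean by a median of 0.78 on the log2 scale, those of 1 to 3 kb by 0.35 and those of 3 kb or more by -0.26, while the same medians in mice 2278 and 2279 lay between -0.14 and -0.02. The 4 B cell genes summed here (Cd79a, Cd79b, Ms4a1 and Cd22), all 5 T cell genes and all 5 neutrophil genes were higher in mice 2278 and 2279 than in the other 4. The B cell genes summed to 63.8 and 50.3 FPKM in these mice, to 1.27 FPKM in mouse 2276, where Ms4a1 was listed at 0, and to 0.581 to 1.10 FPKM in WT. Summed T cell genes were at 29.5 and 36.7 FPKM against 1.14 FPKM in mouse 2276 and 0.638 to 0.887 FPKM in WT. Neutrophil genes summed to 19.7, 130 and 50.8 FPKM in mice 2276, 2278 and 2279 and to 0.716 to 3.57 FPKM in WT. Other lists also moved with mice or genotype. Of the Schwann cell and adipocyte lists, 4 of 5 and 3 of 5 genes were higher in mice 2278 and 2279 than in the other 4, and Schwann cell genes summed to 344 and 419 FPKM there against 114 FPKM in mouse 2276 and 78.1 to 246 FPKM in WT. Erythroid genes summed to 763, 517 and 224 FPKM in mice 2276, 2278 and 2279 and to 244 to 277 FPKM in WT, and endothelial genes to 123 to 124 FPKM in HrasG12V and 139 to 171 FPKM in WT mice. Fibroblast and tendon genes summed to 798, 3454 and 942 FPKM in mice 2276, 2278 and 2279 and to 2002 to 4618 FPKM in WT, and the tenocyte gene Tnmd was below WT in every HrasG12V mouse (9.75 to 32.8 FPKM against 34.3 to 85.7 FPKM). Macrophage genes summed to 75.9, 93.4 and 55.3 FPKM in mice 2276, 2278 and 2279 against 48.4 to 57.0 FPKM in WT. Adipocyte genes summed to 783, 817 and 774 FPKM in mice 2276, 2278 and 2279 and to 401 to 704 FPKM in WT, most of it from Fabp4 (713 to 769 FPKM against 395 to 678 FPKM). The 3 satellite cell genes did not move together: Pax7 and Myf5 were above WT in every HrasG12V mouse, Cdh15 overlapped (6.45 to 12.6 FPKM against 9.66 to 10.3 FPKM), and their sum was 16.6, 9.76 and 12.2 FPKM in mice 2276, 2278 and 2279 against 12.4 to 12.6 FPKM in WT. The part of these cell types in the results below was not tested. Of 10 muscle fiber genes, 4 were above 0 in every library, and Pvalb, a calcium buffer of fast fibers, reached 10828 to 32969 FPKM. Acta1, Myh4 and Atp2a1, which muscle uses at high levels, were listed at 0 in all 6 libraries, so a value of 0 in these tables can be a failed estimate. Hras itself was at 36.8, 36.0 and 51.8 FPKM in WT and at 58.8, 28.9 and 16.0 FPKM in HrasG12V mice, a sum over both alleles that does not check the labels.

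Across the 9 genes, Odc1 was the only one with an unadjusted p below 0.05 between genotypes, and it was higher in HrasG12V muscle by 1.39-fold. None passed after adjustment over all genes, where the lowest adjusted p was 0.481 (limma, Benjamini-Hochberg). One gene of 9 is to be read against 10.2% of all 13359 genes in either direction and 5.18% in the higher direction at the same unadjusted limit, and against 0.0599% at the adjusted limit. The median log2 fold change was 0.15 over the 9 genes and -0.03 over all genes tested. Because whole muscle was sampled, fewer cells of a type and less RNA per cell cannot be told apart.

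**Figure D1:**
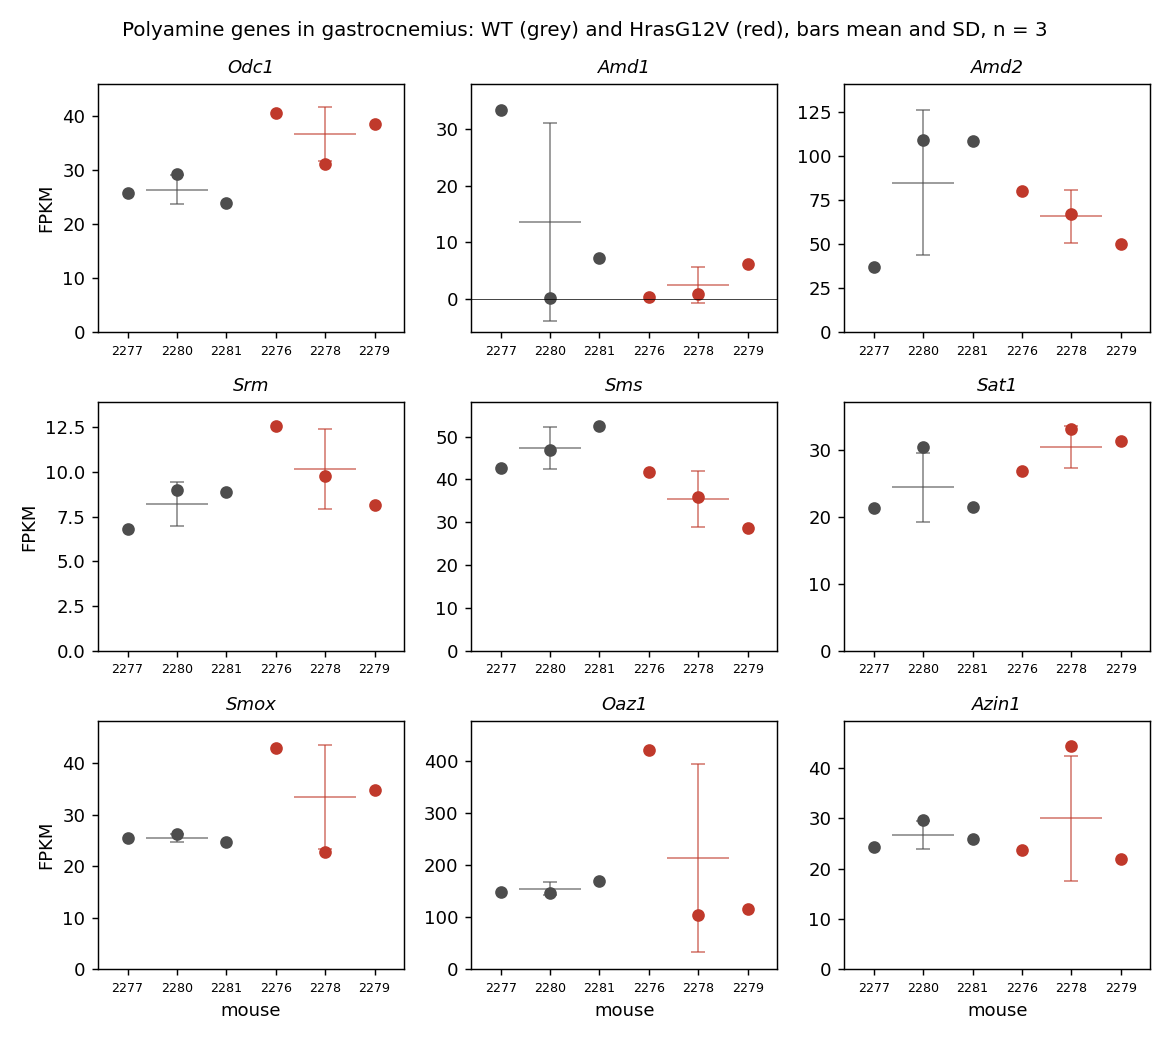
FPKM of each gene (vertical axes, starting at 0 or just below it) in each mouse (horizontal axes), with WT in grey and HrasG12V in red; bars give the mean and SD of 3 mice. The red points of Odc1 lie above all grey points and those of Sms lie below them, while the other 7 genes overlap.

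Among the synthetic enzymes, Odc1 (chr12:17544794-17551505, plus strand) is the first and is limiting for putrescine. In WT mice 2277, 2280 and 2281 it was at 25.8, 29.3 and 24.0 FPKM, against 40.5, 31.1 and 38.5 FPKM in HrasG12V mice 2276, 2278 and 2279. Every HrasG12V mouse was above every WT mouse, as for 8.11% of all genes, although mouse 2278 was close to the highest WT mouse. The log2 fold change was 0.47 (SE 0.19, 95% interval 0.03 to 0.92) and the adjusted p was 0.481 (unadjusted p below 0.05). The highest value was in mouse 2276, where Odc1 differed from the WT mean by 0.62 on the log2 scale and the median gene of its length class by 0.35. In that mouse B and T cell genes summed to 1.27 and 1.14 FPKM, neutrophil genes to 19.7 FPKM and erythroid genes to 763 FPKM. The fibroblast and tendon sum was lowest in mice 2276 and 2279, which had the highest Odc1. Not every gene of that list followed, as Dcn in mouse 2279 (333 FPKM) was above WT mouse 2277 (306 FPKM). The adipocyte sum, most of it from Fabp4, was above WT in every HrasG12V mouse, as was Odc1. Adipoq, Plin1, Lep and Cidec overlapped between genotypes, and in mouse 2276 none of them was above the highest WT mouse. The satellite cell sum, most of it from Cdh15, was above WT in mouse 2276 and below it in mice 2278 and 2279. Pax7 and Myf5 were, like Odc1, above WT in every HrasG12V mouse. The part of these cells in Odc1 was not tested. Leaving out each mouse in turn gave log2 fold changes of 0.40 to 0.59. The unadjusted p exceeded 0.05 without WT mouse 2277 (log2 fold change 0.46, adjusted p = 0.934), WT mouse 2281 (0.41, adjusted p = 0.97) or HrasG12V mouse 2279 (0.43, adjusted p = 0.465). With the trend over transcript length removed from each library the log2 fold change was 0.35 (adjusted p = 0.492), and 0 of the 9 genes were then called against 10.8% of all genes.

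The decarboxylase pair Amd1 and Amd2 varied more among mice of 1 genotype than between genotypes. Amd1 was at 33.4, 0.0700 and 7.17 FPKM in WT and at 0.296, 0.809 and 6.15 FPKM in HrasG12V mice. Amd2 was at 37.2, 109 and 108 FPKM in WT and at 80.1, 67.1 and 50.04 FPKM in HrasG12V mice. Mouse 2277, with the highest Amd1, had the lowest Amd2, and Amd1 made up 47.3% of the pair there against 0.0642% in WT mouse 2280. The log2 fold change was -1.40 (SE 1.99, adjusted p = 0.86) for Amd1 and -0.24 (SE 0.46, adjusted p = 0.903) for Amd2, and neither direction was stable when mice were left out. Given the shared sequence, the division between these genes is uncertain, and their sum was tested as well.

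**Figure D2:**
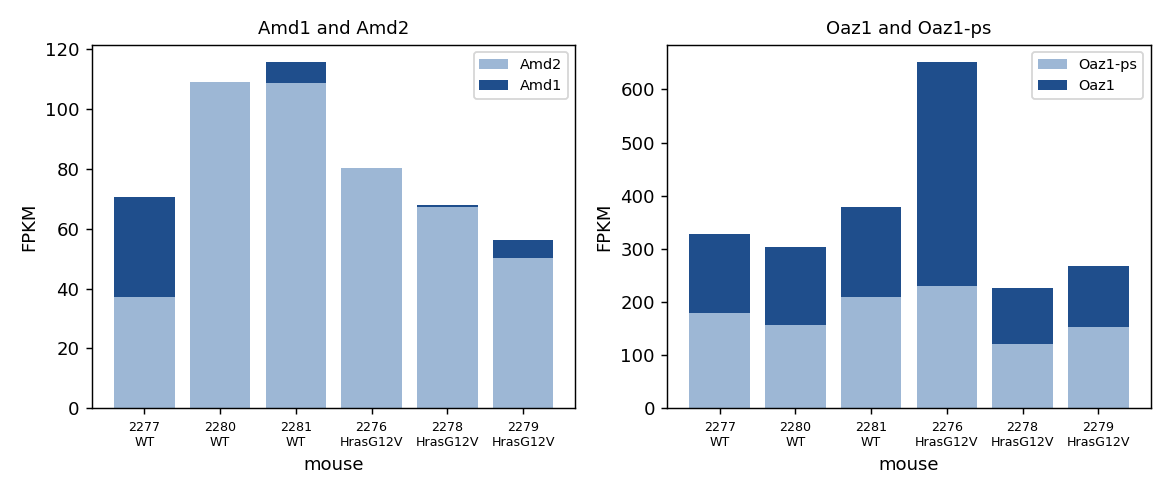
Stacked bars of FPKM (vertical axes, from 0) by mouse for Amd1 on Amd2 (left) and Oaz1 on Oaz1-ps (right). The Amd1 share runs from 0.0642% to 47.3% of the pair, and the Oaz1 and Oaz1-ps sum is highest in HrasG12V mouse 2276.

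Summed Amd1 and Amd2 were at 70.6, 109 and 116 FPKM in WT and at 80.4, 67.9 and 56.2 FPKM in HrasG12V mice. The groups overlapped through WT mouse 2277, which was below HrasG12V mouse 2276. The log2 fold change of the sum was -0.51 (SE 0.27, 95% interval -1.16 to 0.14, adjusted p = 0.574). Without mouse 2277 it was -0.74 and the unadjusted p fell below 0.05 (adjusted p = 0.934), as for 4.75% of all genes in that fit. The unadjusted p was also below 0.05 for Amd2 alone without mouse 2277 (-0.75, adjusted p = 0.934) and for Amd1 alone without mouse 2280 (-3.57, adjusted p = 0.864), as for 5.31% of all genes in the latter fit.

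Srm and Sms, the spermidine and spermine synthases, had log2 fold changes of opposite sign. Srm (chr4:148591503-148594993) was at 6.80, 9.004 and 8.86 FPKM in WT and at 12.6, 9.78 and 8.15 FPKM in HrasG12V mice, a log2 fold change of 0.29 (SE 0.21, adjusted p = 0.695) with overlapping groups. The Srm value was 0.13 without mouse 2276, 0.16 without WT mouse 2277 and 0.10 with the length trend removed. Sms (chrX:157443855-157492287) was at 42.6, 46.9 and 52.5 FPKM in WT and at 41.7, 36.0 and 28.7 FPKM in HrasG12V mice. Sms and Sat1 are X-linked and the sex of the mice is not labelled, so its part in either gene was not tested. Every HrasG12V mouse was below every WT mouse for Sms, as for 10.4% of all genes, with mice 2276 and 2277 less than 1 FPKM apart. Its log2 fold change was -0.43 (SE 0.21, 95% interval -0.92 to 0.07, adjusted p = 0.541). Without mouse 2276 it was -0.55 (adjusted p = 0.0862), in a comparison in which 3 of the 9 genes, Odc1, Sms and Oaz1, and 29.8% of all genes had an unadjusted p below 0.05. Without mouse 2279 the Sms value was -0.29 (adjusted p = 0.544).

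The balance of Sms to Srm was measured within each library, where scaling between libraries has no part. The log2 ratio of Sms to Srm was 2.63, 2.37 and 2.55 in WT and 1.72, 1.87 and 1.80 in HrasG12V mice. All 3 HrasG12V ratios were below all WT ratios, with a difference of -0.72. The exact permutation test gave p = 0.1 (2-sided), the smallest that 3 against 3 mice allow, and 0.5 after adjustment over the 5 ratios examined. The difference stayed between -0.80 and -0.66 when each mouse was left out. The transcripts differ in length, 1338 bases for Srm and 3717 for Sms, and with the length trend removed the log2 fold changes of these genes lay closer together, at 0.10 and -0.41 against 0.29 and -0.43.

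**Figure D3:**
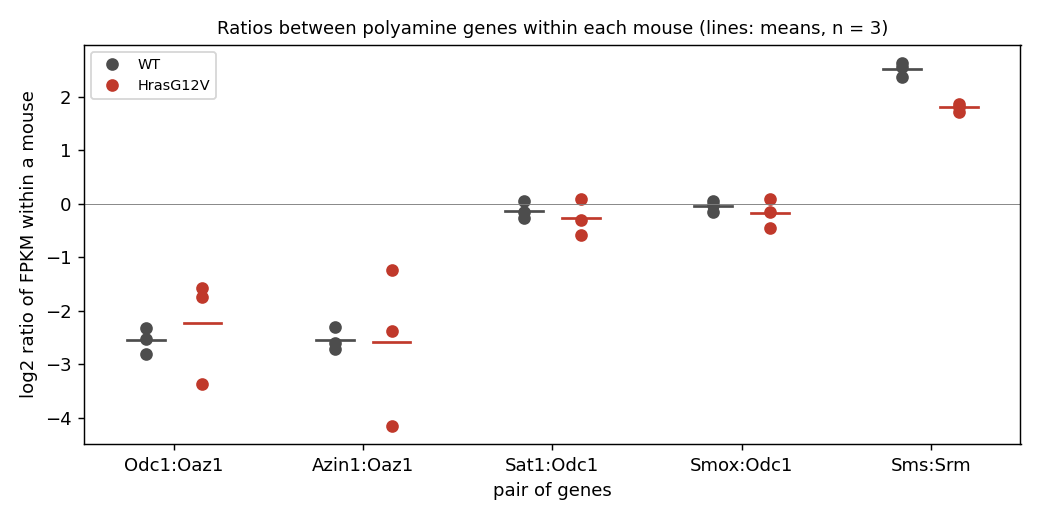
Log2 ratio of the FPKM of 2 genes within each mouse (vertical axis) for 5 pairs (horizontal axis), WT in grey and HrasG12V in red, with a line at each mean of 3 mice. The Sms to Srm ratios separate the genotypes, from 2.37 to 2.63 in WT and from 1.72 to 1.87 in HrasG12V mice, and the other 4 pairs overlap.

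The catabolic genes had positive log2 fold changes that did not pass the test. Sat1 (chrX:155213132-155216449), the acetyltransferase, was at 21.3, 30.3 and 21.5 FPKM in WT and at 26.8, 33.0 and 31.3 FPKM in HrasG12V mice. WT mouse 2280 lay among the HrasG12V mice, and the log2 fold change was 0.33 (SE 0.21, adjusted p = 0.633). Without mouse 2280 it was 0.50, with an unadjusted p below 0.05 (adjusted p = 0.864), as had 5.31% of all genes in that fit. With the length trend removed it was 0.12 (adjusted p = 0.899).

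Smox (chr2:131491496-131525922), the spermine oxidase, had tightly grouped WT values of 25.4, 26.3 and 24.8 FPKM. In HrasG12V mice it was at 42.8, 22.8 and 34.8 FPKM, so mice 2276 and 2279 were above WT and mouse 2278 was below it. The log2 fold change was 0.34 (SE 0.25, 95% interval -0.27 to 0.95, adjusted p = 0.7). Without mouse 2278 it was 0.60 (adjusted p = 0.456), where 2 of the 9 genes, Odc1 and Smox, were called against 9.69% of all genes. Without mouse 2276 it was 0.14 (adjusted p = 0.667), and with the length trend removed it was 0.24 (adjusted p = 0.735). In mouse 2276 Smox differed from the WT mean by 0.75 on the log2 scale, and the median gene of its length class by 0.35. Mouse 2278 also had the highest sum of 5 dividing cell genes, 12.4 FPKM against 1.43 to 2.93 FPKM in WT, 2.45 FPKM in mouse 2276 and 4.29 FPKM in mouse 2279. Its fibroblast and tendon sum was 3454 FPKM against 798 and 942 FPKM in mice 2276 and 2279. The part of other cell types in the Smox value was not tested. The ratios Sat1 to Odc1 and Smox to Odc1 had differences of -0.14 (exact permutation p = 0.6) and -0.13 (exact permutation p = 0.7) on the log2 scale.

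In the antizyme system, Oaz1 (chr10:80826656-80829290) had the highest mean FPKM of the 9 genes in both genotypes, and 1 mouse set its mean in HrasG12V muscle. It was at 149, 147 and 169 FPKM in WT and at 421, 104 and 115 FPKM in mice 2276, 2278 and 2279. Mouse 2276 was above and the other two were below every WT mouse. The log2 fold change was 0.15 (SE 0.54, adjusted p = 0.957), and without mouse 2276 it was -0.50 (adjusted p = 0.0633). Oaz1 differed from the WT mean by 1.44 on the log2 scale in mouse 2276, with a transcript of 1071 bases, where the median was 0.78 for genes under 1 kb and 0.35 for genes of 1 to 3 kb. With the trend over transcript length removed, the log2 fold change was -0.07 (adjusted p = 0.965).

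Oaz1-ps was at 180, 156 and 210 FPKM in WT and at 230, 122 and 153 FPKM in HrasG12V mice. Summed Oaz1 and Oaz1-ps were at 329, 303 and 379 FPKM in WT and at 652, 226 and 268 FPKM in HrasG12V mice, with a log2 fold change of 0.02 (SE 0.44, adjusted p = 0.994). The Oaz1 share of the sum was 44.6% to 48.5% in WT, 46.2% and 43.0% in mice 2278 and 2279, and 64.7% in mouse 2276.

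Azin1 (chr15:38487427-38519266), the inhibitor, was at 24.4, 29.6 and 25.9 FPKM in WT and at 23.6, 44.3 and 22.0 FPKM in HrasG12V mice. Mouse 2278 was above all others, and mice 2276 and 2279 were below all WT mice. The log2 fold change was 0.10 (SE 0.30, adjusted p = 0.943), and -0.22 (adjusted p = 0.626) without mouse 2278. The log2 ratio of Odc1 to Oaz1 differed by 0.32 (exact permutation p = 0.6) and that of Azin1 to Oaz1 by -0.05 (exact permutation p = 0.9), both with overlapping groups and a wide spread among HrasG12V mice (SD 0.99 and 1.47, against 0.25 and 0.21 in WT).

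**Figure D4:**
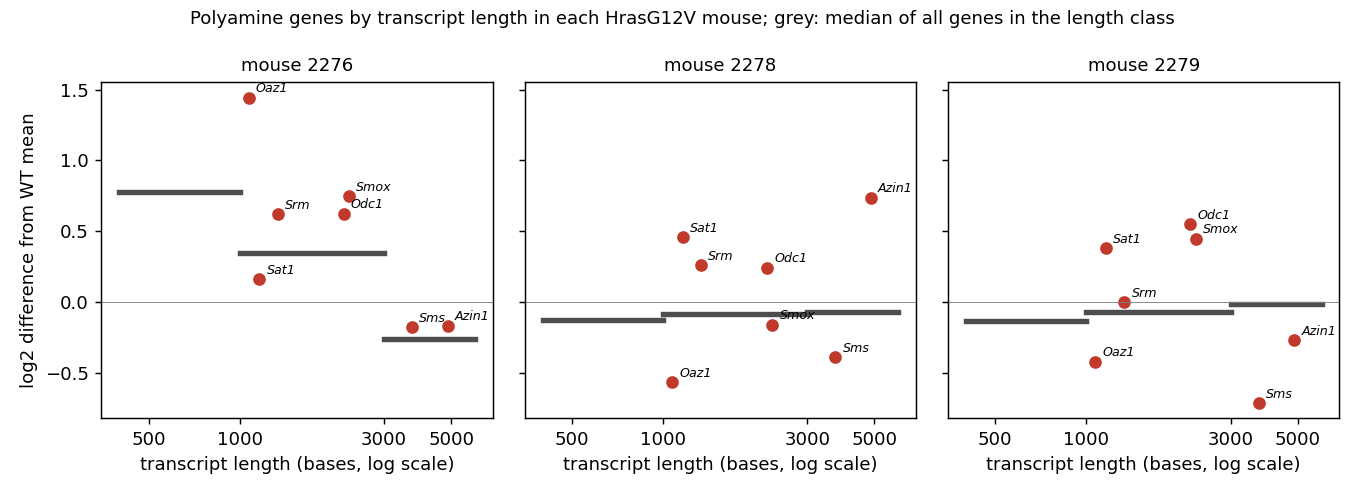
Log2 difference from the WT mean (vertical axis) against transcript length in bases (horizontal, log scale) for 7 genes, without the Amd pair, in each HrasG12V mouse; grey bars are medians of all genes in each length class. In mouse 2276 the grey bars fall from 0.78 to -0.26, and Oaz1 lies at 1.44, whereas in mice 2278 and 2279 it lies at -0.57 and -0.42.

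FPKM is per length, so levels were set side by side between genes in WT mice. The length shift of mouse 2276 enters every mean of the HrasG12V mice. Amd2, Oaz1, Odc1 and Sms shared 85.7%, 52.2%, 42.2% and 28.7% of their windows with other genes. Their levels depend on how such reads were divided, so their order is uncertain. Mean FPKM in WT was 155 ± 12.1 (SD, n = 3) for Oaz1, 84.9 ± 41.3 for Amd2 and 47.4 ± 4.95 for Sms. Amd2 alone was below Sms in WT mouse 2277, but summed Amd1 and Amd2 were above Sms in all 6 mice. Azin1 (26.6 ± 2.72), Odc1 (26.3 ± 2.72), Smox (25.5 ± 0.735) and Sat1 (24.4 ± 5.17) followed and did not differ beyond their spread. Srm was at 8.22 ± 1.23, and Amd1 (13.5 ± 17.6) could not be placed, being below Srm in 2 of 3 WT mice. In HrasG12V muscle Odc1 had the third mean (36.7 ± 4.97), next to Sms (35.4 ± 6.49), Smox (33.4 ± 10.1), Sat1 (30.4 ± 3.19) and Azin1 (29.9 ± 12.4), which again lay within their spread.

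Odc1 and Smox were each set beside the genes of most similar pattern, by the root mean square difference in centered log2 FPKM over the 6 libraries among 12177 genes. For Odc1 these were Tspan4 (0.048), Mrgbp (0.057) and Ftl1 (0.069). Tspan4 was at 6.21, 7.06 and 6.03 FPKM in WT and at 9.31, 7.37 and 9.33 FPKM in HrasG12V mice, with mouse 2278 lowest of the mutants as for Odc1. For Smox they were Arglu1 (0.064), A330069E16Rik (0.068) and Zfp219 (0.075). Arglu1 was at 19.2, 17.9 and 18.4 FPKM in WT and at 31.0, 16.7 and 23.4 FPKM in HrasG12V mice. These are descriptions of likeness over the same libraries, without a test.

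The wider pathway was followed in 37 further genes, of which 27 passed the limit on low values. Of the 27, 1 had an unadjusted p below 0.05 (10.2% of all genes did), 15 had positive and 12 negative log2 fold changes, and the median was 0.05. The called gene was Myc, a transcription factor known to activate Odc1. Myc was at 2.63, 3.38 and 2.79 FPKM in WT and at 3.49, 4.64 and 5.95 FPKM in HrasG12V mice, without overlap. Of the 27 genes, 3 were higher in every HrasG12V mouse than in every WT mouse (Myc, Paox and Slc22a3) and 1 lower (Mat2b, named after its values were seen), against 8.11% and 10.4% of all genes. Myc had a log2 fold change of 0.64 (SE 0.23, adjusted p = 0.468). Myc was highest in mice 2278 and 2279. These mice also had the highest B cell, T cell, neutrophil, Schwann cell and dividing cell sums. The part of those cells in Myc was not tested. In mouse 2276 it was at 3.49 FPKM, close to the 3.38 FPKM of the highest WT mouse. Leaving out each mouse in turn gave log2 fold changes of 0.45 to 0.83, with an unadjusted p above 0.05 without mouse 2277, 2278, 2279 or 2281. With the trend over length removed the log2 fold change was 0.53 and the unadjusted p was again above 0.05. Without mouse 2276, 10 of the 27 genes were called, against the 29.8% of all genes in that comparison.

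**Figure D5:**
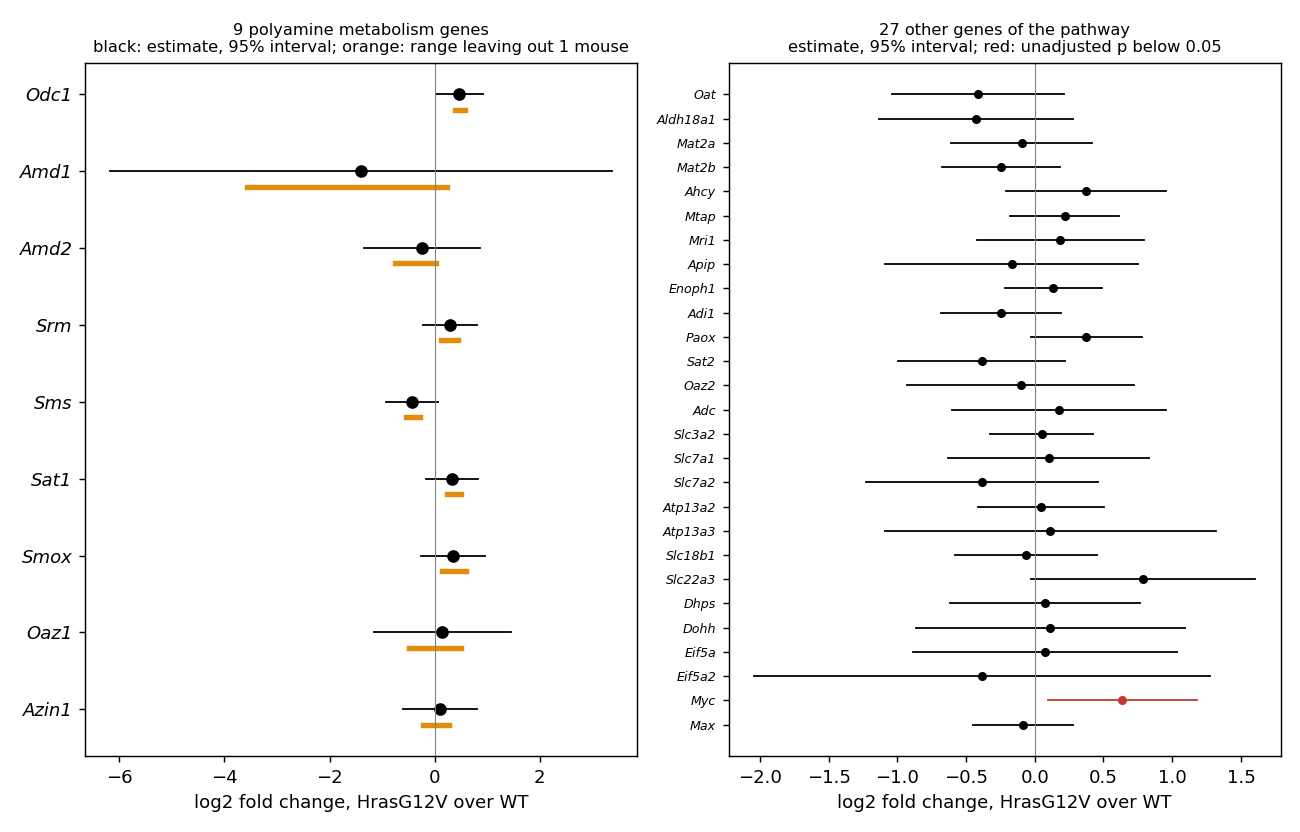
Log2 fold change of HrasG12V over WT (horizontal axes) for the 9 genes (left) and 27 other pathway genes (right, Azin2 under its older symbol Adc); points are estimates, thin lines 95% intervals and orange bars the range when each mouse is left out. The interval of Odc1 (0.03 to 0.92) and that of Myc, in red, lie above 0, and every other interval includes it.

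For ornithine, both tested genes had negative values that did not pass. Oat, which converts ornithine to glutamate semialdehyde, had a log2 fold change of -0.41 (adjusted p = 0.64), and Aldh18a1, which makes the same intermediate from glutamate, had -0.42 (adjusted p = 0.672). Of 8 genes for S-adenosylmethionine supply and methylthioadenosine salvage 0 were called, from Adi1 at -0.25 (adjusted p = 0.7) to Ahcy at 0.37 (adjusted p = 0.656). Among other catabolic enzymes and antizyme genes, Sat2 was lowest at -0.39 (adjusted p = 0.655) and Paox, which oxidizes acetylated polyamines, highest at 0.38 (adjusted p = 0.515). The 7 transporters ran from Slc7a2, an arginine carrier, at -0.38 (adjusted p = 0.758) to Slc22a3, an organic cation carrier, at 0.79 (adjusted p = 0.501). The genes of hypusine formation, in which spermidine modifies eIF5A, ran from Eif5a2 at -0.38 (adjusted p = 0.894) to Dohh at 0.11 (adjusted p = 0.957).

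The other 10 pathway genes were under the limit. Agmat, named after its values were seen, encodes agmatinase, which makes putrescine from agmatine. It was at 0, 0.0169 and 0.0199 FPKM in WT and at 0.335, 0.229 and 0.301 FPKM in HrasG12V mice, so that it was low throughout and the groups did not overlap, as for 7.55% of genes in this direction when low values are kept. In the fit without a limit on low values its log2 fold change was 1.78 (SE 0.18) and its adjusted p was 0.0952, where 9.34% of all genes had an unadjusted p below 0.05. Slc12a8, named in the same way, was the other gene under the limit that was called in that fit. It was at 0.236, 0.245 and 0.219 FPKM in WT and at 0.121, 0.131 and 0.129 FPKM in HrasG12V mice, without overlap, as for 8.54% of genes in this direction. Its log2 fold change was -0.56 (SE 0.16, adjusted p = 0.46).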

How the data were processed

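Total RNA of 6 gastrocnemius muscles (3 WT and 3 HrasG12V mice) was made into stranded mRNA libraries by the authors and sequenced as single-end 50-base reads. The deposited values are FPKM per gene symbol. According to the methods and submitters' processing notes, the authors aligned reads with TopHat (GRCm38/mm10), estimated transcripts with Cufflinks and normalized them with Cuffnorm. Tool versions were not given in the sources used here, nor was the annotation. Steps of whole reads were looked for in the log2 ratios of low values between 2 libraries. The fullest interval held 3.54% to 4.74% of genes between WT mice and 0.775% to 2.07% in the other pairs. The values are FPKM rather than counts, and no count model was used. The methods state a nominal number of reads per sample, but mapped reads per library were not stated in the sources used here. Precision is known only from the spread between mice.

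Genes averaging at least 0.5 FPKM were compared as log2(FPKM + 0.1) by limma's moderated test (version 3.58.1, R 4.3.3), which was 2-sided, had a trend over abundance and no covariate, and was adjusted over 13359 genes by Benjamini-Hochberg. Fold changes are on that scale, which understates changes of low genes. Amd1 and Amd2, and Oaz1 and Oaz1-ps, were also summed. Ratios within libraries were compared by exact permutation. Genes named were the 9 members, pathway genes with an unadjusted p below 0.05 or else the highest and lowest of each list, 3 genes of like pattern each for Odc1 and Smox, and Mat2b, Agmat and Slc12a8 after their values were seen. The members and lists were chosen with earlier results of these data known. Shared 50-base windows and transcript lengths came from GENCODE vM21 (GRCm38), and 99.3% of genes tested had a length. One marker gene of the B cell list is not reported here. Alternatives were other pseudocounts, filters, scalings, moderation, array weights, leaving out each mouse and, added after seeing the data, removal of the trend over transcript length and the Oaz1 sum. Figures were made with matplotlib 3.10.9.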

Additional observations from a re-analysis of the deposited data

How the results depend on the processing

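With 3 mice per genotype, single mice decided most calls, and the cause was not tested. Leaving out each mouse in turn gave 0 to 3 genes with an unadjusted p below 0.05 among the 9 and 0 to 10 among the 27 other pathway genes, while the share of all genes ran from 4.54% to 29.8%, highest without mouse 2276. It gave log2 fold changes of -3.57 to 0.24 for Amd1, -0.75 to 0.022 for Amd2, -0.74 to -0.38 for their sum, -0.50 to 0.51 for Oaz1, -0.45 to 0.32 for summed Oaz1 and Oaz1-ps, and -0.22 to 0.28 for Azin1. Differences of log2 ratios ran from -0.0067 to 0.89 for Odc1 to Oaz1, -0.73 to 0.73 for Azin1 to Oaz1, -0.32 to 0.024 for Sat1 to Odc1 and -0.25 to 0.0099 for Smox to Odc1.

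Among the 9 genes, 0 were called with libraries rescaled to the same total FPKM (5.33% of all genes), 2 with quantile normalization (Odc1 and Sms, 12.7% of all genes) and 0 with the trend over transcript length removed (10.8%), and array weights called Sms in place of Odc1 (22.8%). Among the pathway genes the counts were 2 with a pseudocount of 1 (10.1% of all genes), a pseudocount of 0.01 (10.3%) or robust moderation (9.96%), 0 with the same total FPKM or no moderation (9.86%), 6 with array weights and 4 with the length trend removed. Without a filter (9.34%) the count was 3, of which Agmat and Slc12a8 are outside the 27. Smox was at 0.13 with array weights. Oaz1 turned to -0.38 with array weights and to -0.068 with the length trend removed, and its sum with Oaz1-ps turned to -0.073 with quantile normalization, -0.36 with array weights and -0.20 with the length trend removed. No gene of the 9 passed the adjusted limit under any of these settings. Only a nominal depth is stated and the values hold no reads, so no limit of detection was given, and the division of reads between copies was made before deposit.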
